A study of Mus musculus with 10 samples.

Results

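The nucleolar genes described here are 40 mouse genes that serve ribosome biogenesis and RNA polymerase I. They were chosen by name, from a list that holds 5 genes of RNA polymerase I and its factors, 4 of box C/D and 4 of box H/ACA small nucleolar ribonucleoproteins (snoRNPs), 5 of the nucleolar scaffold, 10 of the small-subunit processome and 12 of large-subunit assembly. All 40 names matched a row among the 54446 gene identifiers of the count files, and 39 passed the filter on low counts. Wdr74, a large-subunit assembly factor, was the exception, with a count of 0 in every library. Pno1, a ribosome biogenesis gene outside the list, also had a count of 0 in every library. Whether such a count reflects absent RNA or the way reads were counted was not tested.

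The samples were tumours of TH-MYCN mice, in which a human MYCN transgene under a tyrosine hydroxylase promoter gives rise to neuroblastoma, a tumour of the sympathetic nervous system. RNA of these tumours was sequenced from 3 untreated libraries (numbered 1, 2 and 3), 3 libraries taken after 24 h of treatment (numbered 2, 3 and 4) and 4 taken after 5 days (numbered 1 to 4). All 3 groups carry the transgene. The sample titles speak of a combined treatment without naming drugs. The design text names MLN8237, known as alisertib, which blocks the kinase Aurora-A, and AZD6738, known as ceralasertib, which blocks the kinase ATR, and calls them a combination but joins them by "or". No label tells whether libraries of a group came from different mice, and ages, doses and a vehicle are not given, so p-values measure only the spread between these libraries.

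Ribosome biogenesis begins in the nucleolus, where RNA polymerase I, recruited by Rrn3 and Ubtf, copies the ribosomal DNA into one long precursor. Box C/D and box H/ACA snoRNPs methylate and pseudouridylate that precursor, the small-subunit processome folds and cuts its first portion, and a second series of assembly factors matures the large subunit. Many of these genes are textbook targets of MYC proteins, and in neuroblastoma with amplified MYCN the nucleolus is typically prominent.

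Libraries held 5576926 to 5696436 counts, and 3 counts, taken as the limit for a gene without reads, correspond to 0.527 to 0.538 CPM (normalised read counts scaled to a fixed total per library). That limit was computed on total counts alone. All levels below are CPM on library sizes scaled by trimmed mean of M-values (TMM). Library 1 of the 5-day group stood apart from the other 9. Its TMM factor was 0.812, against 1.001 to 1.039 elsewhere, and the biological coefficient of variation of the whole fit was 40.8% with it and 18.9% without it. In that library the summed level of 19 adrenergic neuroblast markers, which had no marker at 0 in all libraries, was 1201 CPM, against 3477 to 5002 CPM in the other 9. Over the same libraries 16 macrophage markers summed to 15104 against 616 to 1763 CPM, 14 fibroblast markers to 19452 against 481 to 3018 CPM, 10 adipocyte markers to 13589 against 101 to 1924 CPM, and 14 cell cycle markers to 1680 against 4170 to 5030 CPM. Results are therefore given with and without 5-day library 1. In bulk tumour RNA, fewer tumour cells and less RNA per tumour cell cannot be told apart.

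In untreated tumours the 40 genes together took 0.848%, 0.920% and 0.853% of all counts. Per kilobase of transcript, the scale on which genes can be compared, the level was highest for Npm1, the histone chaperone nucleophosmin, at 431 ± 25.2 CPM per kb (SD, n = 3). Ncl, the rRNA-binding protein nucleolin, followed at 247 ± 10.3 CPM per kb, and Nop58, a core protein of box C/D snoRNPs, at 206 ± 14.4 CPM per kb. The median over the members was 63.1 CPM per kb. The lowest measured levels were those of Polr1a, the catalytic subunit of RNA polymerase I, at 11.2 ± 1.36 CPM per kb, and of Noc3l, a factor of large-subunit export, at 9.69 ± 1.53 CPM per kb. The place of Polr1a turns on an annotated transcript of 9216 bases: before division by length it had a mean of 103 CPM, against 38.5 CPM for Noc3l. The value of Ncl rests on an annotated transcript of 8202 bases, and its order with Npm1 turns on that length: before division by length Ncl had a mean of 2028 CPM and Npm1 of 705 CPM. Npm1 has processed pseudogenes in the mouse genome, and no source used here tells how reads shared between such copies were counted.

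The members lay on 18 chromosomes of mm10, with at most 7 of them on 1 chromosome, chromosome 11. Of the 40 genes, 7 hold annotated small nucleolar RNA (snoRNA) genes on the same strand within their own bounds, 21 in all. They are Nop56 (5 snoRNAs), Nop58 (4), Ncl, Wdr43 and Gnl3 (3 each), Tsr1 (2) and Dkc1 (1). That is 17.5% of the members, against 1.27% of 21951 protein-coding genes. The latter are all annotated coding genes, tested here or not, and the share over tested genes was not computed. The snoRNAs themselves had a count of 0 in each of these libraries of polyadenylated RNA. Exons of 16 members overlapped an exon of a gene on the opposite strand (Nop56 with Idh3b, Heatr1 with Lgals8, Tsr1 with Srr, among others), and no source says whether counting used the strand, so these counts could hold reads of both genes.

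Because MYC proteins bind with MAX to the E-box CACGTG, the start regions of the members were searched for these 6 letters, which read the same on both strands. RefSeq windows of 300 bases (GRCm38.p6, 250 bases before to 50 after the start) were at hand for 36 members. CACGTG occurred in 8 of them (22.2%), namely Mybbp1a, Nop2, Pes1, Rrn3, Tsr1, Utp20, Utp4 and Wdr43. It occurred in 8.09% of all 27025 genes with a window, and in 11.7% of the 10234 tested genes with a window. The related CACGCG, read on either strand (CGCGTG on the other), was in 14 members (38.9%), against 10.5% of all and 20.1% of tested genes. The following 4 windows show where the motif lies, in capitals, for a gene of each of 4 roles. Tsr1 (chr11:74897830-74898129, plus strand) is a factor of small-subunit maturation with the lowest fold change at 24 h, Pes1 (chr11:3963725-3964024, plus strand) belongs to large-subunit assembly, Rrn3 (chr16:13780449-13780748, plus strand), the initiation factor of RNA polymerase I, carries 2 copies, and Mybbp1a (chr11:72441077-72441376, plus strand) is a scaffold protein.
Tsr1: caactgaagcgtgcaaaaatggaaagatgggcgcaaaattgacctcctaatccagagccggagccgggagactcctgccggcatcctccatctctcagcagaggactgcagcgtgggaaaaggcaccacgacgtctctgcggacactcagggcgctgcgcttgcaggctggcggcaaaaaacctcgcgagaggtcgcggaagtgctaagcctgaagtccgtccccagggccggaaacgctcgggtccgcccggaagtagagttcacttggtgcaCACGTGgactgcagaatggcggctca
Pes1: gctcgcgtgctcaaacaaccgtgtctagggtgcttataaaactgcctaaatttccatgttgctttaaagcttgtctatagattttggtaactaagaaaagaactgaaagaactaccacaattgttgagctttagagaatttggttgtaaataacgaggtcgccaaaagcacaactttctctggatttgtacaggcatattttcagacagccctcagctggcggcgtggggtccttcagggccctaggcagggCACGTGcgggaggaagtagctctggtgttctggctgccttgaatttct
Rrn3: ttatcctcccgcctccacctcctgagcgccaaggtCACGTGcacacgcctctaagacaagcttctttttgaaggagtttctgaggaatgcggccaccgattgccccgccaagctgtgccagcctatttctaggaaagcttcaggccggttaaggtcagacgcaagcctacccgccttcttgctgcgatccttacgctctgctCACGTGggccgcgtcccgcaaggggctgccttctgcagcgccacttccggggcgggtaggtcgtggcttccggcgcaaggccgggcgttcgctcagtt
Mybbp1a: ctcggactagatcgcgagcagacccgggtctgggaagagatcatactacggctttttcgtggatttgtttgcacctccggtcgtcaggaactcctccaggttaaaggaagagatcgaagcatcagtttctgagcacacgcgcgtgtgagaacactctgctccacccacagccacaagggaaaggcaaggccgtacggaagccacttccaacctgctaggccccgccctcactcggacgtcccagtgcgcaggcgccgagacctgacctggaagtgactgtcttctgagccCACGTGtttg
Counting the start site as position 1, the motif began at position 25 in Tsr1, 3 in Pes1, 41 in Mybbp1a, and at -215 and -48 in Rrn3. A match of letters is a description of the window and does not show binding. Many listed genes are known targets of MYC proteins, so a higher share of this motif is not independent of the choice of genes. Between untreated and 24 h tumours, the 8 members with CACGTG had a median log2 fold change of -0.16 (7 of 8 below 0), and the other 27 tested members with a window had -0.09 (23 of 27 below 0). At 5 days these medians were -0.24 and -0.30 with all libraries, and -0.06 and -0.09 without 5-day library 1.

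The comparison of 24 h with untreated tumours addresses the early response to the inhibitors. No member passed the test at 24 h (edgeR quasi-likelihood F test, Benjamini-Hochberg adjusted p under 0.05 over 14956 genes), where 0.0% of all tested genes were called. The smallest adjusted p among members was 0.9997, and 263 genes (1.76%) but 0 members had an unadjusted p under 0.05. DESeq2 also called 0 genes with all libraries. Values were mostly a little below untreated: 34 of 39 members had a log2 fold change below 0 (51.5% of all genes), with a median of -0.09 (all genes -0.01) and a range of -0.53 to 0.18. The members that lay lowest were those of the small-subunit processome, with a median of -0.28 and 9 of 10 below 0. The large-subunit factors had a median of -0.09 (11 of 11 below 0), RNA polymerase I -0.10, box H/ACA -0.08, the scaffold -0.02 and box C/D -0.01. Differences between these roles were not tested. The processome's median log2 ratio to the untreated mean was -0.15, 0.20 and 0.01 in untreated libraries 1, 2 and 3. In 24 h libraries 2, 3 and 4 it was -0.02, -0.30 and -0.38, so library 2 lay within the untreated spread.

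**Figure D1:**
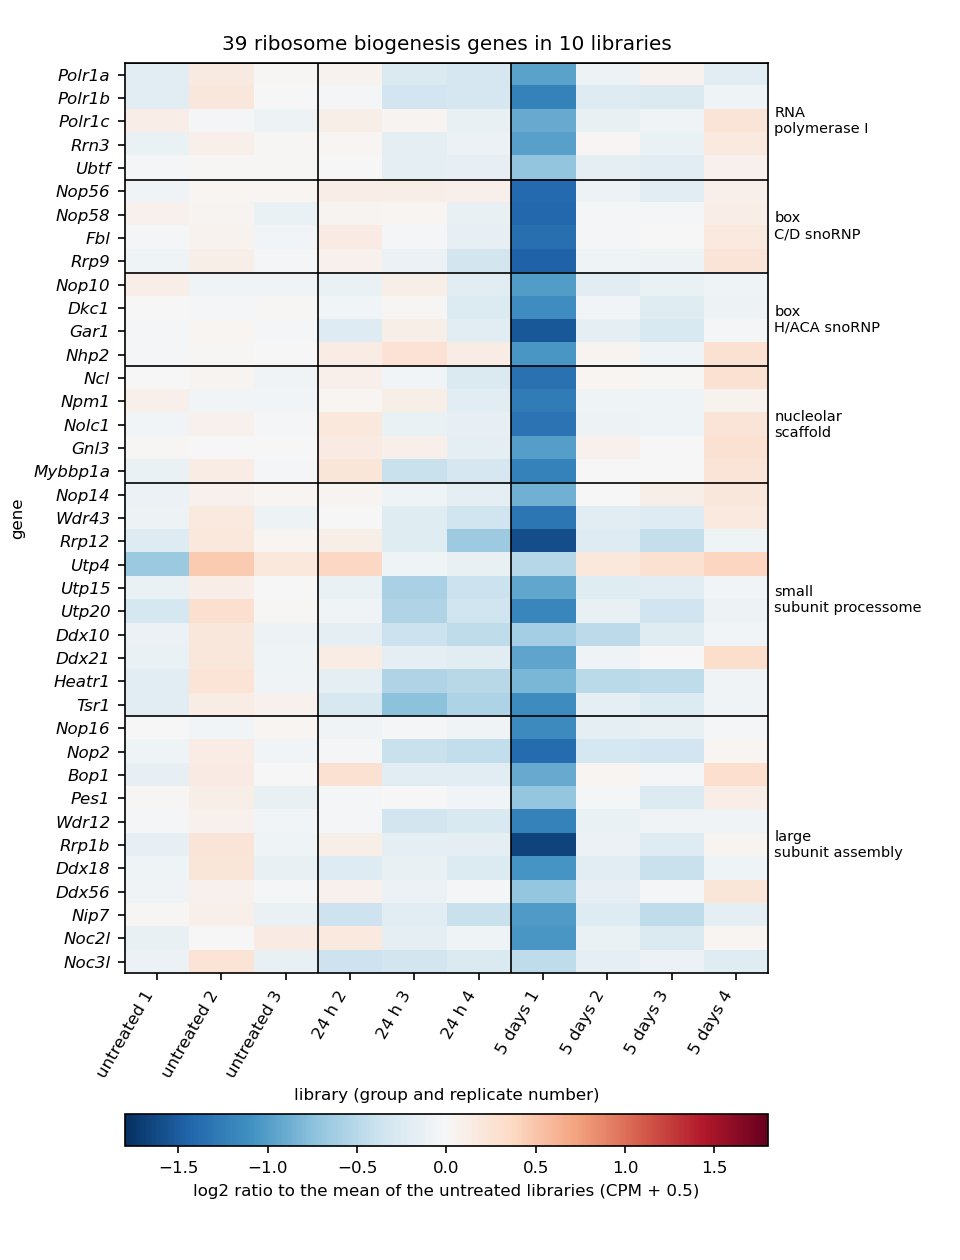
Each row is one of 39 tested genes, grouped by role, and each column one library; colour gives the log2 ratio of the library's level (CPM + 0.5) to the mean of the 3 untreated libraries. The column of 5-day library 1 is blue throughout (median -1.06), and the small-subunit processome rows are pale blue in 24 h libraries 3 and 4 (medians -0.30 and -0.38) but not in 24 h library 2 (-0.02).

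Tsr1, a factor of late 40S maturation (chr11:74898071-74909342), was counted with the small-subunit processome by the list used here. It stood at 68.1, 85.7 and 82.4 CPM in untreated libraries 1, 2 and 3, at 63.9, 46.6 and 52.97 CPM in 24 h libraries 2, 3 and 4, and at 35.3, 69.1, 66.1 and 75.2 CPM in 5-day libraries 1, 2, 3 and 4. Its 24 h values lay below every untreated value, and 5-day libraries 3 and 2 lay near the lowest untreated value. The log2 fold change at 24 h was -0.53 ± 0.26 (SE) with all libraries (edgeR adjusted p = 0.9997) and -0.53 ± 0.13 (SE) without 5-day library 1 (unadjusted p = 0.00160, adjusted p = 0.294). With DESeq2 and without 5-day library 1, a setting chosen after seeing the data, its adjusted p was 0.0448. It was the only 1 of 39 members called there, where 105 of the 14699 genes that passed the filter were called.

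Utp15, a protein of the complex that links processome assembly to rRNA transcription, stood at 87.2, 103 and 93.9 CPM in untreated libraries 1, 2 and 3, at 86.8, 62.7 and 72.1 CPM in 24 h libraries 2, 3 and 4, and at 49.1, 81.3, 82.9 and 91.5 CPM in 5-day libraries 1, 2, 3 and 4. The 24 h values lay below the untreated ones without overlap, if only by a small margin for library 2. Its log2 fold change at 24 h was -0.36 ± 0.22 (SE) with all libraries and -0.35 ± 0.12 (SE) without 5-day library 1 (edgeR adjusted p = 0.9997 and 0.483). Heatr1, of the same complex (chr13:12395027-12440289), stood at 88.6, 119.8 and 96.4 CPM in untreated libraries 1, 2 and 3, at 89.2, 69.3 and 71.3 CPM in 24 h libraries 2, 3 and 4, and at 56.7, 71.5, 73.3 and 96.7 CPM in 5-day libraries 1, 2, 3 and 4. Here 24 h library 2 lay within the untreated range while libraries 3 and 4 lay below it, and the log2 fold change was -0.41 ± 0.21 (SE) (edgeR adjusted p = 0.9997; 0.524 without 5-day library 1). Ddx10, an RNA helicase of small-subunit maturation, stood at 64.6, 79.8 and 64.8 CPM in untreated libraries 1, 2 and 3, at 61.97, 53.1 and 50.5 CPM in 24 h libraries 2, 3 and 4, and at 45.4, 50.1, 59.5 and 67.01 CPM in 5-day libraries 1, 2, 3 and 4, and all 24 h values were below all untreated ones. Utp4, of the Utp15 complex, was the most uneven member. It was at 47.97, 106 and 87.6 CPM in the untreated libraries, and untreated library 1 was lower than every other library, 5-day library 1 (53.2 CPM) included. Utp4 was chosen for mention after its values were seen.

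Of the large-subunit factors, Nip7, needed for pre-rRNA processing (chr8:107056877-107060931), stood at 72.8, 75.8 and 66.03 CPM in untreated libraries 1, 2 and 3, at 55.1, 62.7 and 54.2 CPM in 24 h libraries 2, 3 and 4, and at 35.1, 60.5, 52.1 and 63.5 CPM in 5-day libraries 1, 2, 3 and 4. Its 24 h values did not overlap the untreated ones, and the log2 fold change was -0.32 ± 0.20 (SE) (edgeR adjusted p = 0.9997; 0.472 without 5-day library 1). Noc3l stood at 35.4, 45.6 and 34.7 CPM in untreated libraries 1, 2 and 3, at 29.5, 30.4 and 31.7 CPM in 24 h libraries 2, 3 and 4, and at 27.7, 34.3, 35.4 and 32.7 CPM in 5-day libraries 1, 2, 3 and 4, again with no overlap at 24 h and a log2 fold change of -0.34 ± 0.15 (SE) (edgeR adjusted p = 0.9997; 0.531 without 5-day library 1). Pes1, Bop1 and Wdr12, which form the PeBoW complex of large-subunit rRNA processing, had overlapping groups. Pes1 was at 63.03, 67.4 and 56.97 CPM untreated and 61.3, 62.5 and 60.1 CPM at 24 h, and Bop1 at 141, 173 and 158 CPM untreated and 189, 137 and 136 CPM at 24 h. Their log2 fold changes were -0.03 ± 0.19 (SE) and -0.03 ± 0.28 (SE). Wdr12 was at 56.2, 60.2 and 55.2 CPM untreated and 55.9, 45.4 and 47.4 CPM at 24 h, where libraries 3 and 4 lay below the untreated range and library 2 within it, with a log2 fold change of -0.21 ± 0.27 (SE) (-0.20 ± 0.10 (SE) without 5-day library 1; edgeR adjusted p = 0.9997 and 0.635).

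In all, 5 members (12.8%) had every 24 h value below every untreated value, namely Tsr1, Utp15, Ddx10, Nip7 and Noc3l, against 6.69% of all tested genes. In the opposite direction 2 members (5.13%) had every 24 h value above, Nop56 and Nhp2, against 7.11% of all tested genes. Without 5-day library 1, which enters this comparison only through the spread, the scaling and the gene filter, 6 members had an unadjusted p under 0.05, all lower at 24 h (15.4%, against 3.54% of all genes). They were Tsr1, Nip7, Utp15, Heatr1, Noc3l and Ddx10. That fit called 0 members and 2 of 14699 genes (0.0136%).

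**Figure D2:**
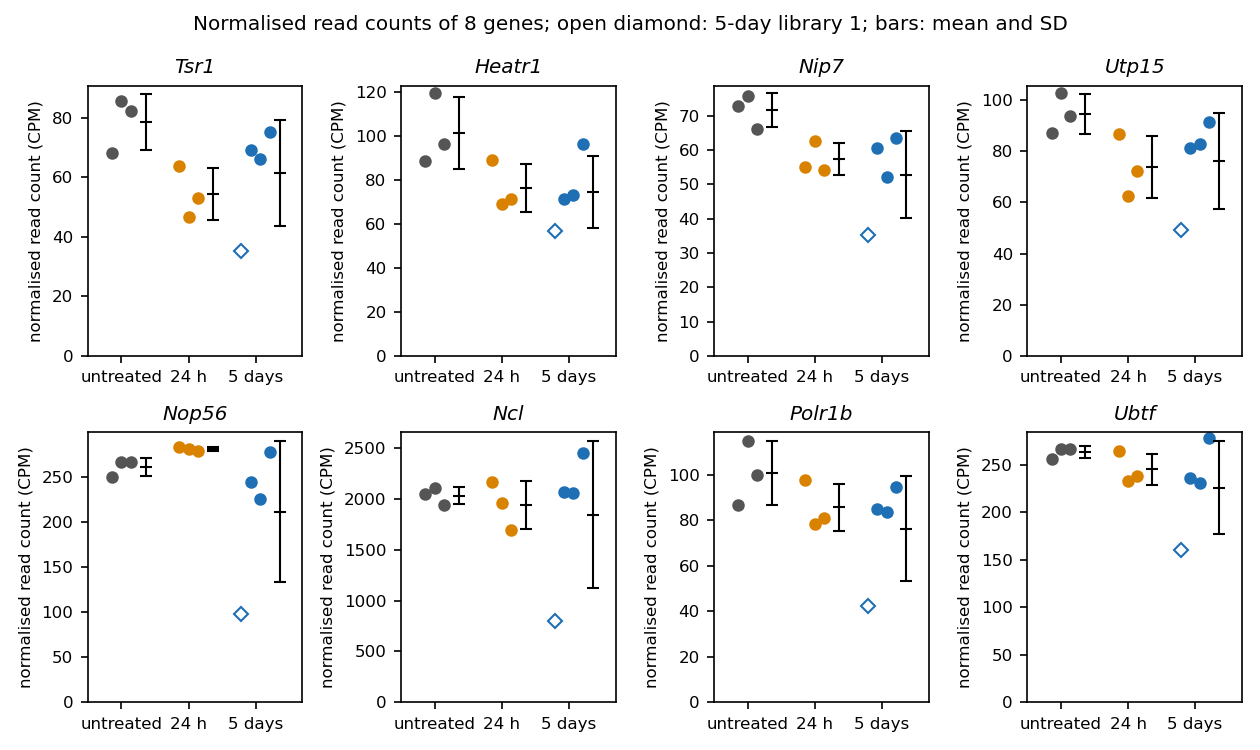
Normalised read counts (CPM, linear axis from 0) of 8 genes in the untreated, 24 h and 5-day libraries; each point is a library, the open diamond is 5-day library 1, and bars give the mean and SD. Tsr1, Nip7 and Utp15 show 24 h values under all untreated values, Nop56 shows the reverse, and the diamond is the lowest 5-day point in every panel.

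The box C/D core proteins, which hold the guide snoRNA and the methyltransferase together, were close to untreated at 24 h. Nop56 (chr2:130274430-130279313) stood at 250.2, 267 and 267 CPM in untreated libraries 1, 2 and 3, at 283, 281 and 279 CPM in 24 h libraries 2, 3 and 4, and at 98.4, 244, 226 and 278 CPM in 5-day libraries 1, 2, 3 and 4. Its 24 h values lay just above the untreated ones and close together, with a log2 fold change of 0.11 ± 0.31 (SE) (edgeR adjusted p = 0.9997; 0.764 without 5-day library 1). Its partner Nop58 was at 369.9, 363 and 324 CPM untreated and 363, 360.3 and 320.2 CPM at 24 h, and the methyltransferase Fbl (fibrillarin) at 92.97, 98.7 and 90.6 CPM untreated and 104, 91.7 and 84.9 CPM at 24 h. For these 2 genes the groups overlapped, with log2 fold changes of -0.02 ± 0.33 (SE) and -0.01 ± 0.32 (SE). Of the box H/ACA proteins, the pseudouridine synthase Dkc1 (dyskerin) was at 178, 174 and 179 CPM untreated and 171, 180.2 and 149.7 CPM at 24 h, with overlap and a log2 fold change of -0.09 ± 0.24 (SE). Nhp2, which binds the same guide RNAs, was at 184, 189.6 and 188 CPM untreated and 205, 225 and 206 CPM at 24 h. Its 24 h values were all above the untreated ones, with a log2 fold change of 0.18 ± 0.27 (SE) (edgeR adjusted p = 0.9997; 0.640 without 5-day library 1).

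The abundant scaffold proteins overlapped between untreated and 24 h libraries as well. Ncl (chr1:86344719-86359400) stood at 2044, 2104 and 1936 CPM in untreated libraries 1, 2 and 3, at 2167, 1959 and 1697 CPM in 24 h libraries 2, 3 and 4, and at 801, 2069.99, 2057 and 2446 CPM in 5-day libraries 1, 2, 3 and 4. Its lowest value among the 9 libraries was that of 24 h library 4, and the log2 fold change at 24 h was -0.06 ± 0.35 (SE). Npm1 was at 752, 682 and 679 CPM untreated and 719.8, 757 and 614 CPM at 24 h, with a log2 fold change of -0.02 ± 0.30 (SE). The scaffold list showed no common direction across the 24 h libraries: its median log2 ratio to the untreated mean was 0.15, -0.05 and -0.20 in libraries 2, 3 and 4.

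None of the 5 member genes of RNA polymerase I and its factors separated the 24 h from the untreated libraries. Polr1a was at 90.3, 115 and 105 CPM untreated and 108, 85.6 and 83.5 CPM at 24 h, and Polr1b, which forms the active centre with it, at 86.8, 115 and 100.01 CPM untreated and 97.5, 78.2 and 81.02 CPM at 24 h. The 24 h libraries 3 and 4 lay below all untreated libraries for both genes, while library 2 did not. The log2 fold changes were -0.16 ± 0.24 (SE) and -0.23 ± 0.27 (SE), with an edgeR adjusted p of 0.9997 each. Rrn3, the initiation factor that joins the polymerase to its promoter, was at 151, 175 and 165 CPM untreated and 167, 145 and 152 CPM at 24 h, and Ubtf, the architectural factor of active ribosomal DNA, at 256, 267 and 267 CPM untreated and 264, 233 and 239 CPM at 24 h. Their log2 fold changes were -0.08 ± 0.25 (SE) and -0.10 ± 0.18 (SE), and their groups overlapped. Of the 12 other pathway genes of RNA polymerase I that were tested, the subunits Polr1e and Polr1g had every 24 h value below every untreated one, and Taf1d had every value above. Among all tested genes 6.69% lay below and 7.11% above in this way, so few of 12 genes are a weak contrast with that background. Polr1g was at 53.2, 55.7 and 48.4 CPM untreated and 44.9, 42.4 and 34.1 CPM at 24 h, with a log2 fold change of -0.37 ± 0.23 (SE) (-0.37 ± 0.12 (SE) without 5-day library 1; edgeR adjusted p = 0.9997 and 0.472). Polr1e was at 29.6, 30.2 and 32.2 CPM untreated and 27.6, 27.4 and 26.7 CPM at 24 h, with a log2 fold change of -0.17 ± 0.26 (SE). Taf1d was at 83.7, 75.6 and 85.5 CPM untreated and 90.1, 111 and 102 CPM at 24 h, with a log2 fold change of 0.31 ± 0.17 (SE). The 3 genes were named after their values were seen.

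The 24 h libraries differed among themselves. The median log2 ratio of the 39 members to the untreated mean was 0.03 in 24 h library 2, -0.16 in library 3 and -0.21 in library 4, and the untreated libraries themselves spread from -0.08 to 0.10. Among the 9 libraries without 5-day library 1, untreated library 2 held the highest value of 16 members and 5-day library 4 that of another 16, while the same libraries held the highest value of 14.9% and 14% of all tested genes. The 24 h library 4 held the lowest value of 16 members (12.1% of all tested genes). The members' median log2 fold change at 24 h was -0.18 without 24 h library 2, -0.040 without 24 h library 4 (27 of 39 members below 0) and -0.058 without untreated library 2 (26 of 39 below 0). Over the same libraries the adrenergic markers summed to 4251 to 5002 CPM untreated and 3785 to 4338 CPM at 24 h, and the macrophage markers to 616 to 1049 and 1306 to 1639 CPM, with 14 of 16 macrophage markers higher. The 7 Schwann cell markers summed to 14.4 to 25.8 CPM untreated and 33.1 to 66.2 CPM at 24 h, with 5 of 5 tested markers higher. Of the adrenergic markers 5 of 19 were higher at 24 h, and of the cell cycle markers 3 of 14. Fibroblast markers were higher in 7 of 14, tested adipocyte markers in 2 of 9 and endothelial markers in 2 of 7. The part of these shifts in the members' values was not tested.

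**Figure D3:**
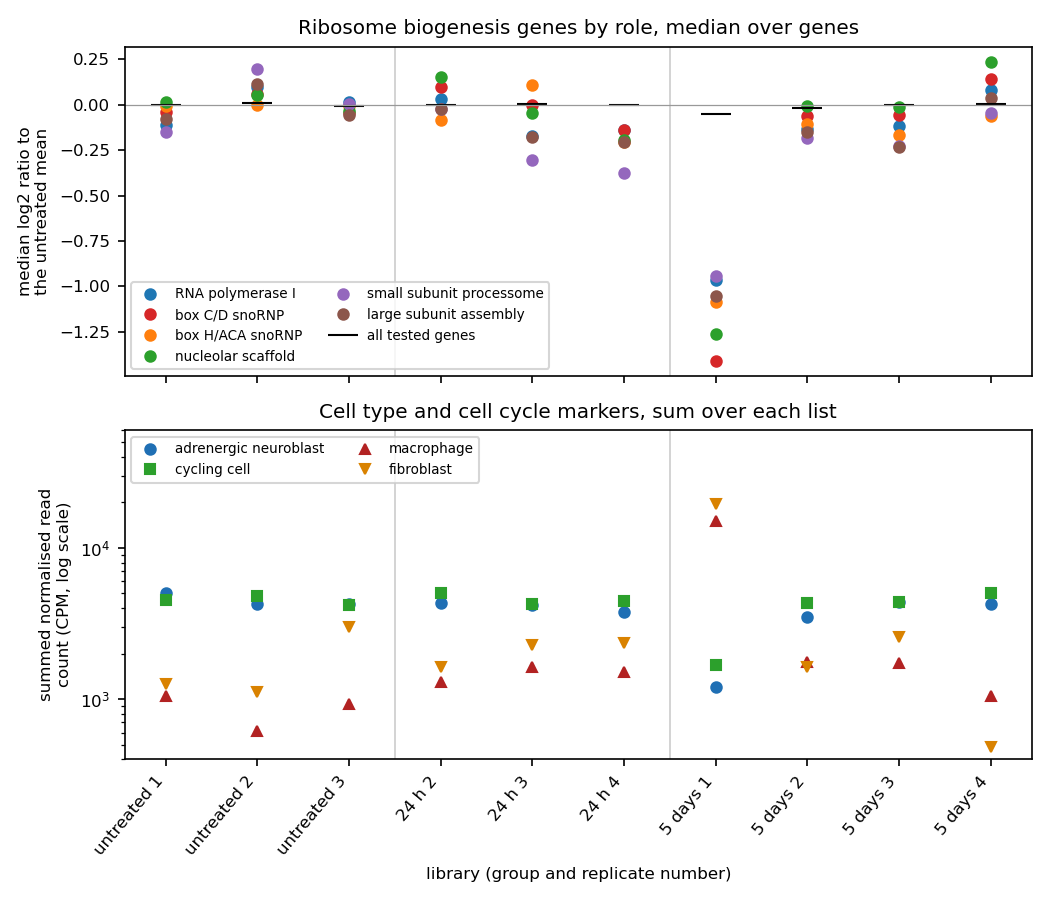
Upper panel: median log2 ratio to the untreated mean for each role and for all tested genes, by library. Lower panel: summed CPM of 4 marker lists on a log axis. In 5-day library 1 all 6 roles lie between -0.94 and -1.41 while the median of all tested genes is -0.05, the adrenergic and cell cycle sums are at their lowest and the macrophage and fibroblast sums at their highest.

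After 5 days, the members' values depended on 5-day library 1. No member passed the test at 5 days (edgeR, smallest adjusted p = 0.538), where 0.0% of all genes were called and DESeq2 called 21 genes and 0 members. With all libraries 38 of 39 members had a log2 fold change below 0 (49.4% of all genes), with a median of -0.26 (all genes 0.01) and a range of -0.49 to 0.05. Without that library 24 of 39 did, with a median of -0.08 (all genes -0.003, 50.5% of them below 0). By role, the medians with all libraries were -0.32 for the small-subunit processome, -0.31 for box H/ACA, -0.30 for the large subunit, -0.23 for box C/D, -0.22 for RNA polymerase I and -0.16 for the scaffold. Without 5-day library 1 they were -0.16, -0.12, -0.11, 0.02, -0.08 and 0.07. Summed over the members, the level was 8599.9 ± 417 CPM (SD, n = 3) untreated, 8138 ± 814 CPM (SD, n = 3) at 24 h and 7410 ± 2496 CPM (SD, n = 4) at 5 days, of which 5-day library 1 had 3800.2 CPM and the other 3 had 8613 ± 813 CPM.

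In 5-day library 1, 38 of 39 members had their lowest value of all 10 libraries, against 38.1% of all tested genes, the exception being Utp4. The ratio to the untreated mean had a median of 0.472 over the members, from 0.311 (Rrp1b, a large-subunit factor) to 0.719 (Noc3l), and 24 of 39 (61.5%) were below 0.5 of that mean, against 17.3% of all tested genes. The box C/D proteins were lowest and most alike, from 0.361 to 0.387, while RNA polymerase I genes had a median of 0.508. In the same library the adrenergic markers had a median ratio of 0.261 and the cell cycle markers of 0.357. Mycn, the mouse gene, stood at 79.7, 112 and 100.2 CPM in untreated libraries 1, 2 and 3, at 105, 88.4 and 83.5 CPM in 24 h libraries 2, 3 and 4, and at 21.6, 94.3, 96.2 and 105 CPM in 5-day libraries 1, 2, 3 and 4. Myc stood at 4.38, 2.79 and 5.92 CPM in untreated libraries 1, 2 and 3, at 2.42, 2.79 and 2.96 CPM in 24 h libraries 2, 3 and 4, and at 26.2, 3.27, 2.41 and 1.24 CPM in 5-day libraries 1, 2, 3 and 4. Mycn was thus lowest and Myc highest in 5-day library 1, and no source used here tells how reads of the human MYCN transgene were assigned.

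Among 5-day libraries 2, 3 and 4 the lower values were few. Nip7 was below the untreated range in each of the 4 libraries, with a log2 fold change of -0.44 ± 0.19 (SE) with all libraries and -0.29 ± 0.11 (SE) without 5-day library 1 (edgeR unadjusted p = 0.0453 and 0.0196, adjusted p = 0.538 and 0.508). Heatr1 had 5-day libraries 2 and 3 below the untreated range and library 4 within it. Its log2 fold change was -0.45 ± 0.19 (SE) with all libraries and -0.34 ± 0.15 (SE) without library 1 (edgeR unadjusted p = 0.0444 and 0.0449, adjusted p = 0.538 and 0.578). They were the only 2 members with an unadjusted p under 0.05 in either fit (5.13% of members, against 2.03% of all genes that were lower with all libraries and 3.86% without library 1). Ddx10 and the helicase Ddx18, a large-subunit factor at 58.1, 71.6 and 55.9 CPM untreated and 29.2, 53.6, 46.6 and 58.3 CPM at 5 days, had log2 fold changes of -0.24 ± 0.13 (SE) and -0.23 ± 0.12 (SE) without library 1 (edgeR adjusted p = 0.633 and 0.629).

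At 5 days, 5 members (12.8%) had every value below every untreated value with all libraries and also without library 1, against 4.89% and 7.6% of all tested genes. Besides Nip7 and the large-subunit factor Wdr12, these were 3 of the 4 box H/ACA proteins, Dkc1, Gar1 and Nop10. Gar1 was at 87.01, 91.1 and 87.5 CPM untreated and 30.3, 78.9, 73.5 and 86.03 CPM at 5 days, Nop10 at 147, 129 and 129 CPM untreated and 66.8, 119, 124 and 127 CPM at 5 days, and Dkc1 at 178, 174 and 179 CPM untreated and 81.4, 171, 153 and 167 CPM at 5 days. In 5-day libraries 2 to 4 the gap to the untreated range was narrow for Gar1, Nop10 and Dkc1, and the log2 fold changes without library 1 were -0.16 ± 0.11 (SE), -0.13 ± 0.10 (SE) and -0.11 ± 0.09 (SE) (edgeR adjusted p = 0.721, 0.743 and 0.752). The gap was also narrow for Wdr12, at 52.7, 54.5 and 54.6 CPM in 5-day libraries 2 to 4 against 55.2 CPM in its lowest untreated library. The remaining box H/ACA protein, Nhp2, overlapped, at 184, 189.6 and 188 CPM untreated and 89.9, 194, 178 and 226 CPM at 5 days. Gar1, Nop10 and Wdr12 were chosen for mention after their values were seen. No member had every 5-day value above every untreated value (4.01% of all genes with all libraries).

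Markers of other tissues were high in 5-day library 2. It had 1612 CPM over 7 markers of adrenal cortex (10.6 to 97.4 CPM elsewhere), 348 CPM over 7 of hepatocytes (2.27 to 10.5 CPM elsewhere), 466 CPM over 7 of skeletal muscle (5.24 to 169 CPM elsewhere) and 1924 CPM over the adipocyte list. Without 5-day libraries 1 and 2 the members' median log2 fold change at 5 days was -0.059, with 24 of 39 below 0. The part of these tissues in the members' values was not tested.

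The fixed members of the other roles were near untreated in 5-day libraries 2 to 4. Ncl had its highest value of the 10 libraries in 5-day library 4, and its log2 fold change was -0.14 ± 0.32 (SE) with all libraries and 0.11 ± 0.10 (SE) without library 1. Npm1 was at 293, 665, 666 and 734 CPM, Nop58 at 132, 343, 346 and 381 CPM and Fbl at 36.4, 91.3, 93.4 and 106 CPM in 5-day libraries 1 to 4. Leaving out library 1 took their log2 fold changes from -0.26 ± 0.28 (SE), -0.23 ± 0.31 (SE) and -0.20 ± 0.30 (SE) to -0.03 ± 0.09 (SE), 0.02 ± 0.09 (SE) and 0.04 ± 0.10 (SE). Bop1, at 83.3, 160.3, 153 and 193 CPM, and Pes1, at 38.4, 61.2, 52.7 and 68.1 CPM, went from -0.09 ± 0.26 (SE) and -0.18 ± 0.18 (SE) to 0.10 ± 0.14 (SE) and -0.04 ± 0.11 (SE).

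The 5 member genes of RNA polymerase I and its factors had their lowest 5-day value in library 1. Polr1a was at 52.6, 96.8, 108 and 89.4 CPM, Polr1b at 42.5, 84.8, 83.6 and 94.4 CPM, Rrn3 at 83.1, 166, 151 and 184 CPM and Ubtf at 159.9, 236, 231 and 278 CPM in libraries 1 to 4. Polr1b lay lowest relative to untreated, with a log2 fold change of -0.40 ± 0.25 (SE) with all libraries and -0.20 ± 0.12 (SE) without library 1 (edgeR adjusted p = 0.552 and 0.682). Without library 1 the values of Polr1a, Rrn3 and Ubtf were -0.08 ± 0.13 (SE), 0.03 ± 0.10 (SE) and -0.09 ± 0.09 (SE).

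**Figure D4:**
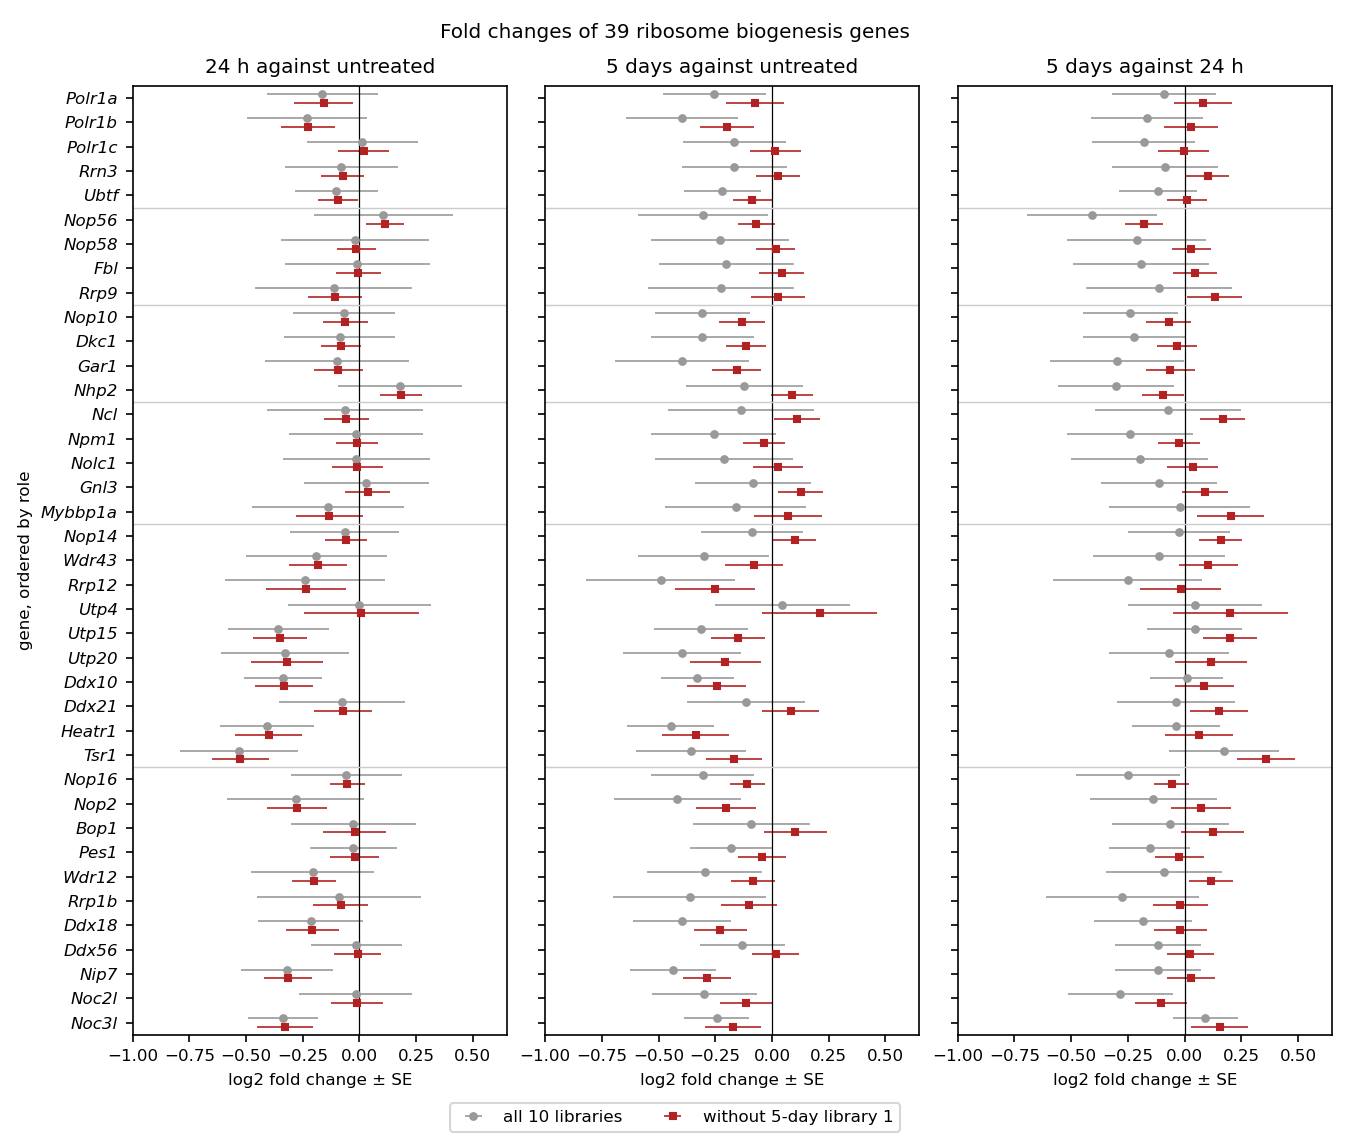
Log2 fold change ± SE of 39 genes in 3 comparisons, ordered by role, from edgeR with all 10 libraries (grey circles) and without 5-day library 1 (red squares). Red squares keep the place of the grey circles at 24 h, and shift right at 5 days, where the median over members is -0.26 with all libraries and -0.08 without 5-day library 1.

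The comparison of 5 days with 24 h asks how values moved between the time points, and it shares its libraries with the other 2 comparisons. No member passed the test (edgeR, smallest adjusted p = 0.600), with 0.0% of all genes called, 942 genes (6.3%) but 0 members at an unadjusted p under 0.05, and 3 genes and 0 members called by DESeq2. The median log2 fold change of the members was -0.12 with 34 of 39 below 0 (47.2% of all genes). Without 5-day library 1 it was 0.05, with 13 of 39 below 0 and 50.5% of all genes, so the direction over the list turned with that library. Tsr1 had a log2 fold change of 0.17 ± 0.24 (SE) with all libraries and 0.36 ± 0.13 (SE) without library 1 (edgeR unadjusted p = 0.0166, adjusted p = 0.602), the 1 member with an unadjusted p under 0.05 (3.67% of all genes were higher at that p). Without library 1, Tsr1 and Noc3l had every 5-day value above every 24 h value (2 members, 5.13%, against 5.25% of all genes). Nop56 was the member whose 5-day values all lay below its 24 h values (1 member, against 4.35% of all genes), with a log2 fold change of -0.41 ± 0.29 (SE) with all libraries and -0.18 ± 0.08 (SE) without library 1 (edgeR adjusted p = 0.600 and 0.650).

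Nop14 of the processome, at 83.2, 94.1 and 91.8 CPM untreated, 92.7, 84.9 and 79.6 CPM at 24 h and 48.9, 89.1, 96.2 and 103 CPM at 5 days, had a log2 fold change between 24 h and 5 days of -0.02 ± 0.22 (SE) with all libraries and 0.16 ± 0.09 (SE) without library 1. Noc2l, a large-subunit export factor, was at 192, 210.05 and 234 CPM untreated, 239.8, 189 and 201 CPM at 24 h and 102, 195, 176 and 216 CPM at 5 days. Its log2 fold change from 24 h to 5 days was -0.28 ± 0.23 (SE), and -0.10 ± 0.11 (SE) without library 1. For Nhp2 the corresponding values, with 5-day levels of 89.9, 194, 178 and 226 CPM, were -0.30 ± 0.26 (SE) and -0.10 ± 0.09 (SE). None of these 3 genes passed the test, with edgeR adjusted p from 0.641 to 0.970 with all libraries.

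The other pathway genes, 114 that the list of 40 does not hold, were read from the same fits. Of these 112 were tested, and 0 were called in any of the 3 comparisons. At 24 h 79 of 112 had a log2 fold change below 0 with a median of -0.09, like the members. At 5 days 105 of 112 did, with a median of -0.20, and 78 of 112 without 5-day library 1, with a median of -0.07. Every 24 h value was below every untreated value for 16 genes (14.3%, against 6.69% of all genes) and above for 4 (3.57%, against 7.11%). Rpf1, a large-subunit factor, was at 70.4, 69.7 and 64.5 CPM untreated and 55.8, 56.4 and 47.04 CPM at 24 h, Brix1, of the same step, at 103, 114 and 100.4 CPM untreated and 90.3, 82.8 and 79.4 CPM at 24 h, and Surf6, a nucleolar matrix protein, at 63.2, 72.3 and 67.95 CPM untreated and 59.4, 51.9 and 45.8 CPM at 24 h. The 3 genes had no overlap at 24 h, with log2 fold changes of -0.36 ± 0.10 (SE), -0.33 ± 0.09 (SE) and -0.37 ± 0.11 (SE) without 5-day library 1 (edgeR adjusted p = 0.361, 0.402 and 0.444).

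At 5 days the smallest p-values of the other pathway genes without library 1 were those of Ddx31, Exosc3 and Surf6. Ddx31, a helicase of large-subunit assembly, was at 24.9, 31.3 and 24.04 CPM untreated and 15.5, 20.2, 17.7 and 21.5 CPM at 5 days, and Exosc3, a subunit of the RNA exosome that trims pre-rRNA, at 31.9, 37.2 and 36.4 CPM untreated and 28.6, 28.4, 26.7 and 27.9 CPM at 5 days. All 5-day values of both were below all untreated ones. Their log2 fold changes were -0.43 ± 0.14 (SE) and -0.34 ± 0.12 (SE) without library 1 (edgeR adjusted p = 0.444 and 0.468). Exosc3 thus did not have its lowest value in 5-day library 1. Between 24 h and 5 days the leading genes were Wdr3 and Riok2, factors of the small subunit, at 0.44 ± 0.13 (SE) and 0.37 ± 0.13 (SE) without library 1, and Taf1d, a subunit of the promoter factor of RNA polymerase I, at -0.33 ± 0.11 (SE), with an edgeR adjusted p of 0.602 for each of the 3.

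Taf1d was at 83.7, 75.6 and 85.5 CPM untreated, 90.1, 111 and 102 CPM at 24 h and 56.3, 83.4, 73.99 and 85.8 CPM at 5 days, highest in each 24 h library. It holds 8 annotated snoRNAs, and several noncoding snoRNA host genes, transcripts whose introns carry snoRNAs, were likewise higher in every 24 h library. Of 9 tested host genes 7 had a log2 fold change above 0 at 24 h, with a median of 0.03, and 3 (33.3%, against 7.11% of all genes) had every 24 h value above every untreated value. Snhg15 was at 14.5, 13.97 and 12.2 CPM untreated and 20.5, 19.7 and 17.2 CPM at 24 h, Snhg17 at 30.8, 32.5 and 38.9 CPM untreated and 40.05, 48.03 and 46.5 CPM at 24 h, and Snhg5 at 52.7, 45.4 and 46.00 CPM untreated and 56.3, 67.1 and 58.2 CPM at 24 h. Their log2 fold changes at 24 h were 0.50 ± 0.15 (SE), 0.40 ± 0.12 (SE) and 0.34 ± 0.12 (SE) without 5-day library 1 (edgeR adjusted p = 0.423, 0.410 and 0.517).

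Between 24 h and 5 days, 9 of 9 host genes had a log2 fold change below 0 with all libraries, with a median of -0.40, and 8 of 9 without 5-day library 1, with a median of -0.27. Gas5, which holds 10 snoRNAs, was at 74.6, 55.5 and 76.8 CPM untreated, 63.01, 92.04 and 77.2 CPM at 24 h and 41.7, 57.7, 54.4 and 55.1 CPM at 5 days. Its 5-day values were all below its 24 h values, and the log2 fold change was -0.57 ± 0.18 (SE) (edgeR unadjusted p = 0.0112, adjusted p = 0.581). Snhg12 had a log2 fold change of -0.55 ± 0.33 (SE) between untreated and 5 days, and of -0.35 ± 0.24 (SE) without 5-day library 1. The protein-coding hosts among the members did not share one direction at 24 h: of Nop56, Nop58, Ncl, Wdr43, Gnl3, Tsr1 and Dkc1, Nop56 and Gnl3 were above 0 and Tsr1 was the lowest of all members.

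The spread of the members over the 9 libraries without 5-day library 1 was that of other genes of their level. Their coefficient of variation had a median of 10.3%, from 4.55% (Nop16) to 21.6% (Utp4), against a median of 10.5% over 6605 tested genes between 34.4 and 2053 CPM. Nop16, Rrp1b, Wdr43, Gnl3 and Mybbp1a, like Utp4, were named after their values were seen.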

How the data were processed

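Per the labels, tumours were frozen on dry ice, Trizol was used for RNA and NEB protocols for libraries of polyadenylated RNA. The deposited files hold raw counts per Ensembl gene, made by the authors on build mm10. The submitters' processing notes name TopHat2 2.1.1, HISAT2 and edgeR without their roles, and no source used here gives the read counter, its strand setting or its annotation. Each of 10 count columns was matched to 1 sample, with 0 left over. Of 54446 identifiers, 37 had no symbol in GENCODE M21 and held at most 0.00412% of counts. No pair of libraries had identical counts.

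Counts were analysed with edgeR 4.0.16 in R 4.3.3: filterByExpr (minimum count 10, minimum total 15; 14956 genes), TMM scaling, 1 mean per group over all 10 libraries, robust quasi-likelihood F tests, and Benjamini-Hochberg adjustment over all tested genes with a threshold of 0.05. Standard errors were derived from the F statistic. Alternatives were DESeq2 1.42.0, edgeR with size factors of DESeq2, all genes unfiltered, a mean of at least 5 CPM, only the compared groups, limma 3.58.1 (voom with quality weights), a replicate block and leaving out each library. Leaving out 5-day library 1 together with DESeq2, the block or the compared groups only, and leaving out 5-day libraries 1 and 2, were chosen after seeing the data. Log2 ratios to the untreated mean per library use 0.5 CPM as pseudocount. The ratios given for 5-day library 1 that are not log2 values use none. The fit was tested on simulated data. Plots used Python 3.11.15 and matplotlib 3.10.9.

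Named genes were 12 fixed members, in each comparison the 3 members with the smallest unadjusted p with and without 5-day library 1, 3 other pathway genes and 3 snoRNA host genes by the same measure without it, and Mycn and Myc. Members, lists and this rule were chosen with earlier results of these data known. Of 14 host genes listed, 12 matched and 9 were tested. Acta1, a muscle marker, had a count of 0 in all libraries.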

Additional observations from a re-analysis of the deposited data

Results flagged for a closer look

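Of 38 values checked in the 5-day group, 5 had 1 library far from the other 3, judged by the gap to the nearest value divided by the group's range, which was above Dixon's 95% critical value. Chance flags about 1 in 20 such groups when the values are independent and not selected. These 38 values come from the same 4 libraries and from genes partly chosen by their p-values, so that rate does not apply to them as a set. For each of the 5 flagged values the far library was 5-day library 1, the lowest for 4 of them and the highest for Myc. Npm1 had a gap of 0.843 of its range, with 293, 665, 666 and 734 CPM in 5-day libraries 1 to 4. Nop58 had 0.848, with 132, 343, 346 and 381 CPM. Snhg17 had 0.909, with 17.2, 40.5, 38.4 and 39.6 CPM, and Mycn 0.871, with 21.6, 94.3, 96.2 and 105 CPM. Myc had 0.919, with 26.2, 3.27, 2.41 and 1.24 CPM.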

How the results depend on the processing

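Over all alternatives the members' median log2 fold change stayed below 0 at 24 h (17 of 17, -0.33 to -0.040) and at 5 days (18 of 18, -0.41 to -0.06), and between 5 days and 24 h it was below 0 in 12 of 18 (-0.27 to 0.09). The count of called members was 0 in every one but DESeq2 without 5-day library 1 at 24 h, which called 1, Tsr1 (-0.53, adjusted p = 0.0448; 0.0448 to 1 over its alternatives). Other pathway genes were called in none. The lowest medians at 24 h and at 5 days were those of the replicate block with all libraries.

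Over all genes, 24 h gave 7 calls with only the compared groups, 3 with voom, 105 with DESeq2 without 5-day library 1, 3 without 5-day libraries 1 and 2, and 0 to 2 with 1 library left out. At 5 days DESeq2 gave 21, and 77 without 5-day library 1. Between 5 days and 24 h DESeq2 gave 3, and 20 without 5-day library 1, and leaving out 5-day libraries 1 and 2 gave 2. The members' median at 24 h was -0.18 to -0.040 with 1 library left out.

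Snhg17 at 5 days (-0.003 with all libraries) turned to 0.0094 with DESeq2, 0.0076 with its size factors, 0.012 with the 5 CPM filter, 0.0037 with only the compared groups and 0.16 with voom, and ranged from -0.10 to 0.21 with 1 library left out. Without 5-day library 1 it was 0.22 with only the compared groups, 0.22 with DESeq2 and 0.15 with the block, and without 5-day libraries 1 and 2 it was 0.19. Nop14 between 5 days and 24 h (-0.02) turned to 0.074 with the replicate block and 0.18 with voom, and ranged from -0.13 to 0.16 with 1 library left out. Without 5-day library 1 it was 0.16 with only the compared groups, 0.17 with DESeq2 and 0.16 with the block, and 0.21 without 5-day libraries 1 and 2. The causes were not tested.

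Equal replicate numbers showed no sign of pairing the libraries. Deviations of same-numbered libraries correlated from -0.39 to 0.25 over 8 pairs (median -0.06). Pairs of different number correlated from -0.55 to 0.49 over 25 pairs (median 0.04), and 0 of 10 libraries were closest to their own number. With so few pairs, 5-day library 1 among them, shared animals or batches cannot be told from this check. With the replicate block the members' median was -0.33 at 24 h, -0.41 at 5 days and -0.04 between the time points, with 0 genes called in each. Those medians depended on 5-day library 1: with the block but without that library they were -0.14, -0.08 and 0.05.

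The limits are 3 or 4 libraries a group, 1 library with which the coefficient of variation is 40.8% instead of 18.9%, and unknown strand and animals. The lowest count of a tested member in any library was 111, above the 3 counts taken as the limit.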
